A study of Mus musculus with 6 samples.

Results

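The genes described here are the protein-coding genes of the translation machinery that were selected by name: those whose symbol starts with Eif or Eef followed by a digit, and those whose description holds the words tRNA synthetase. Eif2s3x, Eif2s3y and Eif2ak2 were left out of the set. The selection gave 109 of the 55401 genes in the deposited tables, of which 54 carry an Eif symbol, 14 an Eef symbol, and 41 entered by description only. No expression value was used to choose them. By role the set held 20 cytosolic and 17 mitochondrial aminoacyl-tRNA synthetases, 54 initiation factors with their kinases and binding proteins, 14 elongation factors with their kinase and methyltransferases, and 4 scaffold or domain proteins. Cytosolic methionyl-tRNA synthetase, Mars1, has no description in the tables and is therefore outside the set; its level was 26.1 TPM in WT/Sed and 34.1 TPM in Cdo1KKO/Sed, with a log2 fold change of 0.13 (adjusted p = 0.153).

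Kidney RNA came from mice with type 1 diabetes induced by streptozotocin, a toxin of the insulin-producing beta cells, and both groups carried this treatment. The 2 groups were WT/Sed and Cdo1KKO/Sed, with 3 libraries each, labelled as biological replicates; Sed is not spelled out in the labels, which also give no age, sex or litter. Cdo1 encodes cysteine dioxygenase, which oxidises cysteine on the path to taurine. The study text names renal tubular Cdo1 as its subject, but the promoter or Cre line behind the knockout is not given in the sources used here. Cdo1 itself was at 254 ± 5.11 TPM (SD, n = 3) in WT/Sed and 181 ± 10.98 TPM (SD, n = 3) in Cdo1KKO/Sed, a log2 fold change of -0.74 (adjusted p = 4.64e-06).

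Translation starts when eIF2 carries the initiator tRNA to the small ribosomal subunit, eIF4 proteins load the mRNA through its cap, and eIF3 holds the complex together. Elongation factor 1 then delivers each aminoacyl-tRNA, and elongation factor 2 moves the ribosome along. The aminoacyl-tRNA synthetases charge each tRNA with its amino acid, with separate nuclear genes for most of the enzymes of the cytosol and of the mitochondria. In the kidney, tubule cells rely on both systems, since their transport work depends on mitochondria that translate their own mRNAs.

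The libraries held 28145261 to 43872779 counts, and members of the set took 1.18 to 1.28% of them in WT/Sed against 1.39 to 1.42% in Cdo1KKO/Sed. Unless another scale is named, differences are log2 fold changes of Cdo1KKO/Sed over WT/Sed from edgeR's quasi-likelihood test on counts scaled by TMM, and levels per library are read counts scaled to the library total (CPM) on the same scale. Levels are compared between genes only in TPM, which is per length. The deposited TPM values and CPM by library size alone place the median gene higher in Cdo1KKO/Sed, by 0.19 and 0.18 on the log2 scale, whereas under TMM the median gene was at 0.01. The words rose and fell below therefore mean higher or lower than the bulk of genes, at an adjusted p under 0.05 over all 17194 genes tested. In bulk kidney RNA, fewer cells of a type and less RNA per cell cannot be told apart.

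Of the 109 members, 105 had enough counts to be tested. 27 rose, against 18.9% of all genes tested, and 17 fell, against 18.5% of all genes tested; 61 were not called. These are 25.7% and 16.2% of the tested members, and the median log2 fold change of the set, 0.01, was the same as that of all genes at this precision. In either direction 37.4% of all genes were called. For 55 of the 105 members the CPM ranges of the groups were apart, against 50.3% of all genes tested. Of the 14309 protein-coding genes tested, 21.15% rose and 20.4% fell. Under TMM the set as a whole thus lay close to the background, and the roles within it went different ways. The cytosolic synthetases had a median of 0.20 and the mitochondrial synthetases a median of -0.27, with 12 rising and 1 falling of 20 in the first and 0 rising and 8 falling of 17 in the second. Without Cdo1KKO/Sed replicate 1 only 9 members fell, and without Cdo1KKO/Sed replicate 3 or without WT/Sed replicate 1 the number was 11.

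The scale bears on the falls. With limma on log2(TPM + 1), 68 of the 105 tested members rose, against 39% of all genes tested, and 0 fell, against 7.26%. With library size only, 52 of the 105 rose, against 32.1%, and 1 fell, against 9.8%. On both scales the share of members that rose was above that of all genes. The median of the set stood above that of all genes by 0.065 in log2(TPM + 1) and by 0.002 with library size only. 19 of the 27 rises held in every one of the 16 alternative settings run, and 0 of the 17 falls did. A member that fell was therefore lower relative to most genes.

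**Figure D1:**
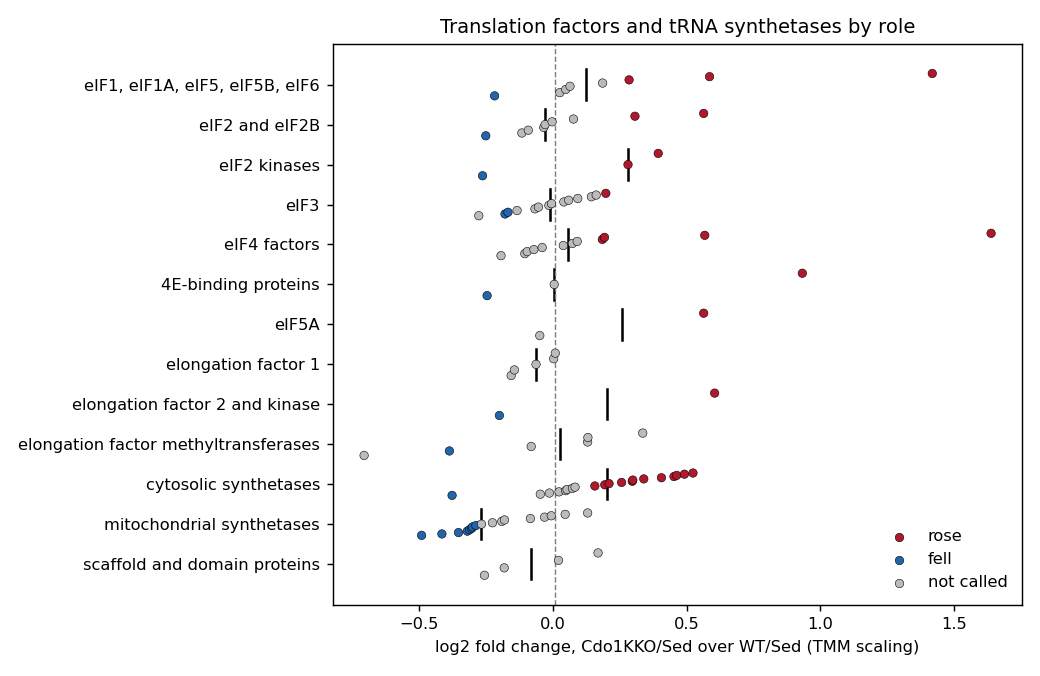
Log2 fold change of each tested member (point) by role, Cdo1KKO/Sed over WT/Sed on the TMM scale, with the median of each role as a black line and the median of all genes as a dashed line; red rose, blue fell and grey was not called. Cytosolic synthetases lie mostly to the right and mitochondrial synthetases mostly to the left, and Eif4e3 at 1.64 and Eif6 at 1.42 stand furthest to the right.

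Markers of several cell types, though not of all, differed between the groups. All 10 proximal tubule markers fell, their summed level being 8982 to 9352 TPM in WT/Sed and 5976 to 6422 TPM in Cdo1KKO/Sed. All 6 red blood cell markers rose, from 77.2 to 155 TPM up to 1408 to 1460 TPM, as did all 4 neutrophil markers tested of 7 listed, from 3.02 to 7.69 TPM up to 56.6 to 71.9 TPM. Of 9 macrophage and dendritic cell markers 5 rose and 1 fell, with sums of 97.0 to 209 TPM and 379 to 392 TPM, and of 5 thick ascending limb markers 4 rose and 1 fell, with sums of 1436 to 1997 TPM and 3075 to 3341 TPM. All 6 fibroblast and pericyte markers rose, from 9.95 to 14.5 TPM up to 29.3 to 35.2 TPM, and 3 of 4 distal convoluted tubule markers rose, from 333 to 400.2 TPM up to 652 to 660.3 TPM. Other lists had few calls or none. Of the tested markers 0 of 6 were called for endothelium, 0 of 6 for T and NK cells and 0 of 5 for cycling cells. Of 5 podocyte markers 1 fell, of 7 collecting duct markers 1 rose and 2 fell, and of 6 B and plasma cell markers 2 rose. Endothelium sums were 19.6 to 73.5 TPM in WT/Sed and 85.1 to 91.2 TPM in Cdo1KKO/Sed. All 6 endothelial log2 fold changes were above 0, with a median of 0.67. Sums were 2.95 to 4.56 TPM and 5.95 to 6.38 TPM for T and NK cells, and 748 to 795 TPM and 489 to 500 TPM for collecting duct. Those of podocytes, B and plasma cells and cycling cells overlapped. The part of these cell types in the changes of the synthetases and factors was not tested.

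The cytosolic synthetases rose as a group more often than any other role with more than 3 tested members. Vars, the valyl-tRNA synthetase, was at 30.7, 29.1 and 30.6 CPM in WT/Sed and at 42.5, 45.2 and 42.4 CPM in Cdo1KKO/Sed. Every Cdo1KKO/Sed library was above every WT/Sed library, with a log2 fold change of 0.52 ± 0.06 (SE; adjusted p = 6.12e-05). Gars, which charges glycine tRNA in both the cytosol and the mitochondria, was at 65.5, 61.7 and 67.9 CPM in WT/Sed and at 91.5, 91.8 and 86.0 CPM in Cdo1KKO/Sed (log2 fold change 0.46 ± 0.06 (SE), adjusted p = 8.48e-05). Wars, the tryptophanyl enzyme, went from 28.9, 29.6 and 26.2 CPM to 39.9, 38.6 and 40.4 CPM (0.49 ± 0.07 (SE), adjusted p = 0.000194). Rars, the arginyl enzyme, went from 48.4, 53.9 and 52.1 CPM to 70.5, 65.8 and 68.3 CPM (0.41 ± 0.06 (SE), adjusted p = 0.000301). None of these 4 genes had overlapping groups, and each kept its call in every alternative run.

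The other cytosolic synthetases that rose were Tars at a log2 fold change of 0.45, Kars at 0.34, Aars and Lars at 0.30 each, Iars at 0.26, Eprs at 0.21, Hars at 0.19 and Nars at 0.16. Nars, the asparaginyl enzyme, had the highest level of the role, 78.6 TPM in WT/Sed and 104 TPM in Cdo1KKO/Sed, and the smallest of the rises. The calls of Eprs, Hars, Iars and Nars were the least secure of the role. Each ended without Cdo1KKO/Sed replicate 1, without Cdo1KKO/Sed replicate 3 or without WT/Sed replicate 1, and those of Eprs and Nars also ended without Cdo1KKO/Sed replicate 2. The adjusted p without those libraries was 0.0555 to 0.0788 for Eprs, 0.0991 to 0.126 for Hars, 0.062 to 0.106 for Iars and 0.0621 to 0.123 for Nars. The other 8 rises of the role held whichever library was left out.

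Tarsl2, a second threonyl-tRNA synthetase of the cytosol, was the only cytosolic synthetase that fell, at 13.3, 14.4 and 15.2 CPM in WT/Sed and 11.4, 9.99 and 11.6 CPM in Cdo1KKO/Sed. The log2 fold change was -0.38 ± 0.10 (SE; adjusted p = 0.013), the groups did not overlap, and the call ended without Cdo1KKO/Sed replicate 2 (adjusted p = 0.061) and on both other scales. In TPM Tarsl2 stood at 4.82 and 4.43, against 13.0 and 21.3 for Tars, the main threonyl enzyme. The 7 cytosolic synthetases that were not called were Dars, Farsa, Sars, Qars, Yars, Cars and Farsb, with log2 fold changes from -0.05 for Dars to 0.08 for Farsb. Of the 7 synthetases of the set that sit in the multisynthetase complex of the cytosol (Eprs, Iars, Lars, Qars, Kars, Rars and Dars), 5 rose. Of the 13 others 7 rose, and of all genes tested 18.9% did. This split was drawn after the values were seen. The complex also holds the enzyme of Mars1, which was not called. The complex's scaffold proteins were not called, with Aimp1 at 0.02 and Aimp2 at 0.17. Of the domain proteins in the set, Prorsd1 was at -0.18 (adjusted p = 0.0907) and Aarsd1, at under 1 TPM in both groups, was at -0.26 (adjusted p = 0.616).

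Many genes of amino acid supply, some synthetases among them, hold in their promoters the composite element that ATF4 binds together with C/EBP proteins, written TGATGNAA, where N is any base. RefSeq promoter windows (GRCm38.p6, 250 bases before to 50 after a start) were present for 82 of the 109 members, and these letters were searched on both strands. They were found in 6 of the 82 members, against 4.51% of the 27025 genes in the table. The 6 were Aars, Gars, Iars, Tars, Yars and Eef2k, so that 5 of the 13 cytosolic synthetases with a window held a match, and 0 of the 14 mitochondrial synthetases with a window did. Windows of 30 bases around a match in each of these genes are shown because they are what these genes share in sequence; each is written 5′ to 3′ on the strand of the match, with the match in capitals.
Aars, 10 bases after the start: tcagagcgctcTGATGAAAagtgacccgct
Gars, 30 bases before the start: cgcccggtgcaTGATGAAAtagcgcagcca
Iars, 8 bases after the start: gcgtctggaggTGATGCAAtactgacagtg
Tars, 15 bases before the start: agctaaccagcTGATGCAAcgggactcctg
Yars, 4 bases after the start: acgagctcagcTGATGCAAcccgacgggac
Eef2k, 84 bases before a start: caagctgagctTGATGAAAcaagcagaaag

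The Aars window lies at chr8:111033840-111033869, minus strand, and the Gars window at chr6:55037960-55037989, minus strand. Iars is at chr13:49682126-49682155, minus strand, and Tars at chr15:11399655-11399684, plus strand. Yars is at chr4:129189895-129189924, plus strand, and Eef2k at chr7:120851094-120851123, minus strand. Of the 6 genes, 5 rose, against 18.9% of all genes tested and 12 of the 20 cytosolic synthetases. Yars was not called, at a log2 fold change of 0.05 ± 0.07 (SE), adjusted p = 0.581. A match is a description of letters and not a binding site.

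Of the other motifs searched, CACGTG, the E-box core, was found in 19 of the 82 members against 8.09% of genes, and TTCNNNGAA, the STAT motif, in 9 of the 82 against 9.55%. CACGTG was in 4 of the 13 cytosolic and 1 of the 14 mitochondrial synthetases with a window, and TTCNNNGAA in 2 and 1. Of the 16 members with a window that rose, 7 held CACGTG, 5 held TGATGNAA and 4 held TTCNNNGAA. Aars, Iars, Tars and Eef2k held both TGATGNAA and CACGTG. Neither CACGTG nor TTCNNNGAA shares a base with the matches shown above. Aars, the alanyl enzyme, was at 97.6, 89.9 and 98.0 CPM in WT/Sed and 122, 117 and 113 CPM in Cdo1KKO/Sed (log2 fold change 0.30 ± 0.06 (SE), adjusted p = 0.00145), without overlap.

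The mitochondrial synthetases lay on the other side. Aars2, the mitochondrial alanyl enzyme, was at 17.2, 15.3 and 14.3 CPM in WT/Sed and 10.2, 12.4 and 10.6 CPM in Cdo1KKO/Sed (log2 fold change -0.49 ± 0.11 (SE), adjusted p = 0.00493). All WT/Sed libraries were above all Cdo1KKO/Sed libraries, and the fall also held with library size only but not in TPM, where the means were 7.43 and 6.29. Vars2 was at 18.8, 18.5 and 17.1 CPM in WT/Sed and 12.7, 15.1 and 13.0 CPM in Cdo1KKO/Sed (-0.42 ± 0.09 (SE), adjusted p = 0.00522). Tars2 fell with a log2 fold change of -0.32 ± 0.07 (SE; adjusted p = 0.0046) and Fars2 with -0.30 ± 0.07 (SE; adjusted p = 0.005). Nars2 at -0.35, Yars2 at -0.31, Hars2 at -0.30 and Lars2 at -0.29 completed the 8. Of the 9 not called, Rars2 had the highest level, 39.1 and 43.95 TPM, with a log2 fold change of -0.08, and the range ran from -0.27 for Pars2 to 0.13 for Wars2.

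The falls of this role depended on the scale and, for 4 genes, on single libraries. Without Cdo1KKO/Sed replicate 1, 5 of the 17 fell in place of 8. Lars2, Nars2 and Yars2 lost their calls there (adjusted p = 0.0623, 0.0592 and 0.0547). Without Cdo1KKO/Sed replicate 2, Hars2 and Nars2 lost theirs (0.0534 and 0.0551), without Cdo1KKO/Sed replicate 3 Hars2 and Lars2 did (0.056 and 0.057), and without WT/Sed replicate 1 Nars2 did (0.0654). In log2(TPM + 1) 0 of the 17 fell and 3 rose, against 7.26% and 39% of all genes tested. With library size only 1 fell and 2 rose, against 9.8% and 32.1%. Relative to the median of all genes on the same scale, the role's median was lower by the same sign throughout, with differences of -0.28 under TMM, -0.20 in log2(TPM + 1) and -0.28 by library size. The cytosolic role's median stood above that of all genes by 0.19, 0.25 and 0.20 on the same scales.

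A comparison within each library does not depend on scaling. For 12 residues 1 cytosolic and 1 mitochondrial enzyme were compared. For threonine the cytosolic gene was Tars. The second cytosolic threonyl gene, Tarsl2, was not paired, and its log2 fold change of -0.38 lay below the -0.32 of Tars2. In these pairs the cytosolic gene had the higher log2 fold change in 12 of the 12, with a median difference of 0.49. The difference ran from 0.25 for Sars over Sars2 to 0.94 for Vars over Vars2. The ratio of cytosolic to mitochondrial TPM was higher in all Cdo1KKO/Sed libraries than in any WT/Sed library for 11 of the 12, the exception being the seryl pair. No share over other pairs of genes was computed. For single genes the CPM ranges of the groups were apart in 50.3% of all genes tested. For valine the ratio of Vars to Vars2 was 1.59, 1.53 and 1.74 in WT/Sed against 3.27, 2.91 and 3.17 in Cdo1KKO/Sed. For alanine the ratio of Aars to Aars2 was 2.90, 3.03 and 3.52 in WT/Sed against 6.12, 4.83 and 5.45 in Cdo1KKO/Sed. Summed over the role, cytosolic synthetases reached 560 to 616 TPM in WT/Sed and 790 to 816 TPM in Cdo1KKO/Sed, while mitochondrial synthetases reached 195 to 209 TPM and 209 to 212 TPM. The ratio of the sums was 2.90, 2.87 and 2.95 in WT/Sed against 3.90, 3.74 and 3.84 in Cdo1KKO/Sed. With 3 libraries against 3 no exact test of such a ratio can go below p = 0.1.

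**Figure D2:**
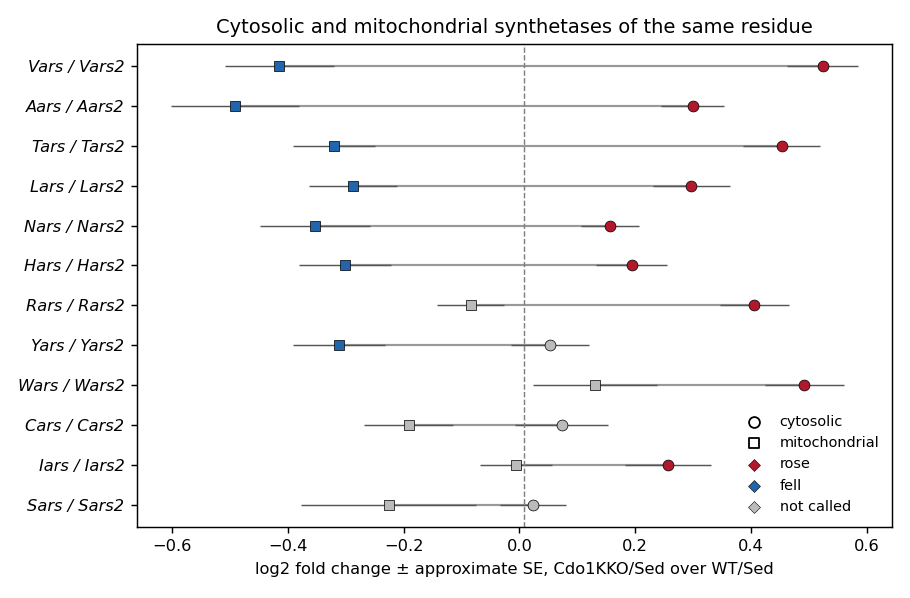
Log2 fold change with its approximate SE (bars) of the cytosolic (circle) and mitochondrial (square) synthetase of each of 12 residues, Cdo1KKO/Sed over WT/Sed, ordered by their difference; red rose, blue fell, grey was not called, and the dashed line is the median of all genes. The circle lies to the right of the square for all 12 residues, by 0.25 at the bottom and 0.94 at the top. For threonine the circle is Tars, and Tarsl2 is not drawn.

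Among eIF1, eIF1A, eIF5, eIF5B and eIF6, the factors of scanning and subunit joining, Eif6 had the largest change (chr2:155819832-155826925, minus strand, GRCm38, GENCODE M21). It encodes eIF6, which binds the large ribosomal subunit and keeps it from joining the small subunit. Its level was 40.7, 40.2 and 39.3 CPM in WT/Sed and 105, 104 and 112 CPM in Cdo1KKO/Sed, far from overlap, with a log2 fold change of 1.42 ± 0.05 (SE; adjusted p = 1.36e-08). In TPM it went from 33.7 ± 0.48 to 107 ± 5.2 (SD, n = 3 each). Eif1a, a copy of the scanning factor eIF1A, was at 51.5, 42.8 and 50.3 CPM and then 73.0, 68.8 and 75.6 CPM (0.59 ± 0.07 (SE), adjusted p = 0.000109), while its X-linked counterpart Eif1ax was at 0.03 and not called. Eif5, which makes eIF2 hydrolyse its GTP at the start codon, rose by 0.29 ± 0.06 (SE; adjusted p = 0.00243). Eif1b, a copy of the start codon selection factor Eif1, fell by 0.22 ± 0.07 on the log2 scale (SE; adjusted p = 0.0385), the weakest of the falls. That call ended in 10 of the 16 alternatives, DESeq2 and the replicate block among them, and without every library but WT/Sed replicate 3 (adjusted p 0.0527 to 0.16). Eif1 itself, the member of this role with the highest level at 364 and 448 TPM, was at 0.05 and not called, and Eif1ad and Eif5b were at 0.19 and 0.06 (adjusted p = 0.0684 and 0.375).

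Among the 9 members of the role of eIF2 and its exchange factor eIF2B, 2 rose and 1 fell. These are 22.2% and 11.1%, against 18.9% and 18.5% of all genes tested. Eif2a and Eif2d are counted in this role, while Eif2s3x was left out of the set by name. Eif2s3x was at 0.27 (adjusted p = 0.0462), a call that ended in 4 of the fits that leave out 1 library. Eif2b3, the gamma subunit of eIF2B, was at 12.1, 13.5 and 13.8 CPM in WT/Sed and 19.5, 18.6 and 20.1 CPM in Cdo1KKO/Sed (0.56 ± 0.09 (SE), adjusted p = 0.000411). Eif2s2, the beta subunit of eIF2, was at 105, 100 and 109 CPM and then 128, 127 and 135 CPM (0.31 ± 0.05 (SE), adjusted p = 0.001). In both genes the groups were apart in every library. Eif2b1, the alpha subunit of eIF2B, fell under TMM, from 32.7 CPM in each WT/Sed library to 27.1, 28.02 and 27.3 CPM (-0.25 ± 0.06 (SE), adjusted p = 0.00721), but its TPM means were 28.8 in both groups. The other eIF2B subunits, Eif2b2, Eif2b4 and Eif2b5, were at -0.00, -0.03 and -0.09, and the alpha subunit of eIF2, Eif2s1, was at 0.08, with Eif2a at -0.03; none was called. Eif2d, which can deliver initiator tRNA without GTP, was at -0.12 (adjusted p = 0.236).

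Each of the 3 kinases of eIF2 in the set was called, where 37.4% of all genes tested were called in either direction. Eif2ak4, which encodes GCN2, the sensor of uncharged tRNA, was at 12.7, 13.4 and 16.0 CPM in WT/Sed and 18.7, 18.1 and 18.6 CPM in Cdo1KKO/Sed (0.39 ± 0.10 (SE), adjusted p = 0.00848). Eif2ak3, which encodes PERK of the endoplasmic reticulum, was at 30.8, 31.1 and 32.9 CPM and then 37.8, 37.8 and 39.8 CPM (0.28 ± 0.06 (SE), adjusted p = 0.00445). Both rose without overlap and in every alternative run. Eif2ak1, which encodes the heme-regulated kinase HRI, was at 75.9, 74.7 and 80.7 CPM and then 63.3, 65.7 and 63.9 CPM (-0.26 ± 0.05 (SE), adjusted p = 0.00268). Its fall held whichever library was left out but not on the other scales, its TPM being 30.9 and 30.7. It had the highest level of the 3 kinases in both groups.

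The 14 members of eIF3, the scaffold of the small subunit, were nearly flat as a role, with a median of -0.01. There were 1 rise and 2 falls (7.14% and 14.3%, against 18.9% and 18.5% of all genes tested). Eif3a, the largest subunit, rose by 0.20 ± 0.06 (SE; adjusted p = 0.0206). Eif3h fell by 0.17 and Eif3k by 0.18 on the log2 scale (adjusted p = 0.0201 and 0.019), and their TPM values, 167 and 177 for Eif3h and 58.6 and 61.7 for Eif3k, were slightly higher in Cdo1KKO/Sed. The calls of all 3 subunits ended without Cdo1KKO/Sed replicate 1, without Cdo1KKO/Sed replicate 3 or without WT/Sed replicate 1, and that of Eif3k also without Cdo1KKO/Sed replicate 2. The adjusted p in those fits was 0.0785 to 0.0939 for Eif3a, 0.078 to 0.0822 for Eif3h and 0.0623 to 0.0841 for Eif3k. Eif3c was at 0.16 (adjusted p = 0.0782), and the other subunits with more than 1 TPM lay between -0.13 for Eif3m and 0.14 for Eif3d.

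Cap binding and unwinding held the gene with the steepest rise of the whole set. Eif4e3 (chr6:99625135-99666771, minus strand, GRCm38), a less abundant relative of the cap-binding protein eIF4E, was at 4.24, 5.81 and 4.33 CPM in WT/Sed and 13.4, 15.8 and 15.3 CPM in Cdo1KKO/Sed. The lowest Cdo1KKO/Sed library was above the highest WT/Sed library by a wide margin, with a log2 fold change of 1.64 ± 0.14 (SE; adjusted p = 5.75e-06). Eif4e itself, at 36.4 and 44.6 TPM, was at 0.04 and not called (adjusted p = 0.635). Eif4e2, a cap-binding relative that competes with eIF4E, rose by 0.19 ± 0.05 (SE; adjusted p = 0.0191), and Eif4enif1, the transporter that binds eIF4E, by 0.19 ± 0.06 (SE; adjusted p = 0.0362). The last 2 calls ended without Cdo1KKO/Sed replicate 1, 2 or 3 (adjusted p 0.05 to 0.0877 for Eif4e2), and that of Eif4enif1 also without WT/Sed replicate 1 (0.0504 to 0.151 over the 4 fits). The call of Eif4enif1 ended with DESeq2 and with no filter on low counts as well. Eif4g1, the platform that joins cap and ribosome, was at 0.09, and Eif4g2, which lacks the eIF4E site and had the highest level of the role at 236 and 267 TPM, was at -0.07. Eif4b, a helper of the helicase, was just outside the threshold at -0.19 (adjusted p = 0.0502). Those of the role not yet named, Eif4a3, Eif4g3 and Eif4h, were at -0.04, -0.10 and 0.07 and not called.

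The helicase eIF4A comes from a pair of genes, Eif4a1 and Eif4a2. Eif4a1 was at 273, 250 and 266 CPM in WT/Sed and 385, 381 and 405 CPM in Cdo1KKO/Sed (0.57 ± 0.05 (SE), adjusted p = 1.23e-05). Eif4a2 was at 500, 507 and 507 CPM and then 468, 459 and 481 CPM, a log2 fold change of -0.11 that was not called (adjusted p = 0.101). The ratio of Eif4a1 to Eif4a2 in TPM was 0.674, 0.607 and 0.647 in WT/Sed against 1.01, 1.02 and 1.04 in Cdo1KKO/Sed (exact permutation test, two-sided, p = 0.1, the smallest that 3 libraries against 3 allow). Eif4a1 was thus the lower of the pair in every WT/Sed library and the higher in every Cdo1KKO/Sed library. Over the 6 libraries the counts assigned to the processed pseudogene Eif4a-ps4 were 0.65% of those of Eif4a1. How reads shared by a gene and its pseudogene were assigned is not known, and their part was not tested.

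The 4E-binding proteins hold eIF4E away from Eif4g1 when growth signals are low. Eif4ebp1 was at 4.37, 5.10 and 5.23 CPM in WT/Sed and 9.07, 10.2 and 8.76 CPM in Cdo1KKO/Sed (0.93 ± 0.13 (SE), adjusted p = 0.000206), and Eif4ebp2 was at 222, 196 and 229 CPM and then 183, 188 and 176 CPM (-0.25 ± 0.06 (SE), adjusted p = 0.0106). The gene that rose was the scarcer by far, with 5.07 and 11.5 TPM against 84.8 and 85.1 TPM for Eif4ebp2. The fall of Eif4ebp2 ended on the other scales, and without Cdo1KKO/Sed replicate 1 (adjusted p = 0.0512), Cdo1KKO/Sed replicate 3 (0.0537) or WT/Sed replicate 1 (0.0571). The ratio of Eif4ebp1 to Eif4e in TPM was 0.132, 0.135 and 0.151 in WT/Sed against 0.248, 0.285 and 0.242 in Cdo1KKO/Sed (exact permutation test, two-sided, p = 0.1, the smallest possible). Eif4ebp3 was at 0.01 with an SE of 0.27; over 20% of its exonic bases overlap another gene, so that its counts are uncertain.

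**Figure D3:**
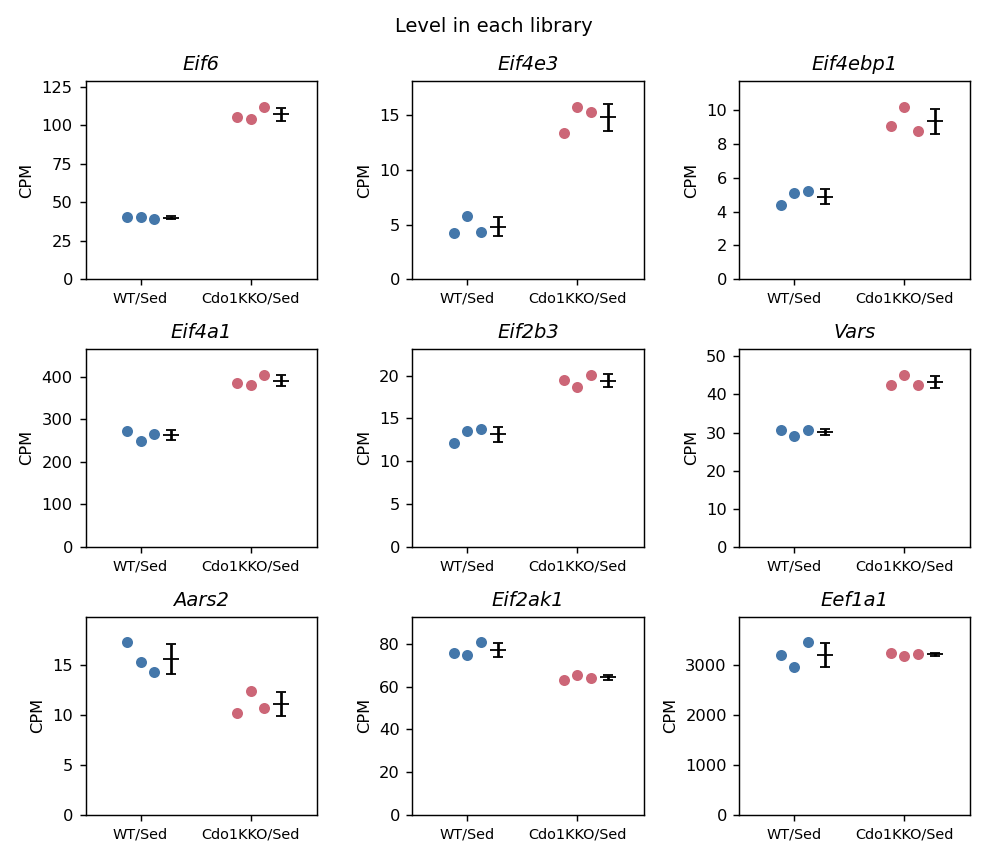
Level in CPM (TMM scale, linear axis from 0) of 9 members in each of the 6 libraries (points), with the mean and SD of each group of 3 (bars). Eif6, Eif4e3, Eif4ebp1, Eif4a1, Eif2b3 and Vars are higher in all 3 Cdo1KKO/Sed libraries, Aars2 and Eif2ak1 are lower in all 3, and Eef1a1 overlaps.

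**Figure D4:**
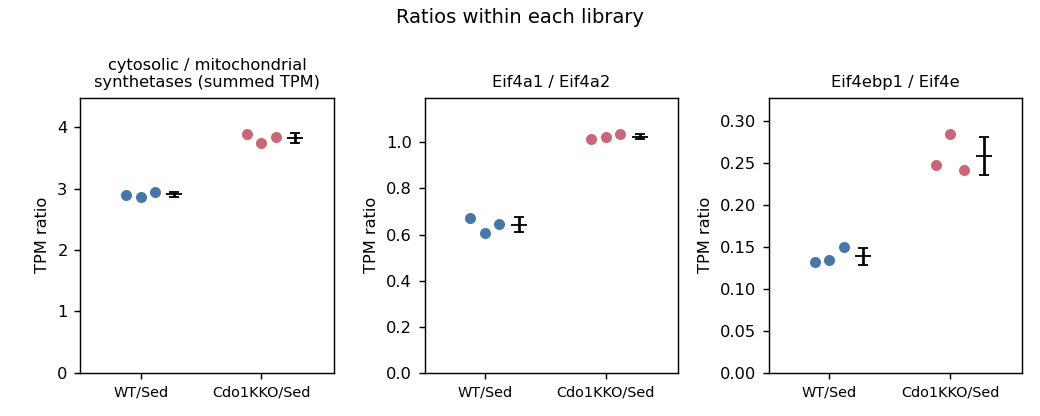
TPM ratios within each library (points), with the mean and SD of each group of 3 (bars), for summed cytosolic over mitochondrial synthetases, Eif4a1 over Eif4a2, and Eif4ebp1 over Eif4e. In each panel the 3 Cdo1KKO/Sed libraries lie above the 3 WT/Sed libraries.

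The elongation step had the members with the highest levels and few calls. Eef1a1, which delivers aminoacyl-tRNA, led the set with 2915 ± 258 TPM in WT/Sed and 3479 ± 80.02 TPM in Cdo1KKO/Sed (SD, n = 3 each). On the CPM scale it was at 3189, 2961 and 3443 in WT/Sed against 3240, 3166 and 3208 in Cdo1KKO/Sed, with overlap and a log2 fold change of 0.00 ± 0.06 (SE; adjusted p = 0.974). The WT/Sed libraries spread more widely than the others, and the Cdo1KKO/Sed libraries lay inside their range. The subunits that recharge it with GTP were not called either, with Eef1b2 at 0.01, Eef1g at -0.06 and Eef1d at -0.14 (adjusted p = 0.902, 0.358 and 0.0925), nor was Eef1e1, a partner of the multisynthetase complex, at -0.16 (adjusted p = 0.192). Eef1a2, the form of muscle and neurons, had 0 counts in WT/Sed and 2 counts in Cdo1KKO/Sed, under the limit of 3 counts per group that a count of 0 allows. The marker lists of muscle and neurons were also low, with Myh2, Myh4, Snap25, Chga, Th and Dbh at 0 in all libraries. Mylpf of the muscle list had counts in every library, at 2.81 TPM in WT/Sed and 3.28 TPM in Cdo1KKO/Sed. So had Stmn2 of the neuron list, at 0.155 and 0.264 TPM. Neither was called.

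Eef2, which translocates the ribosome, and Eef2k, the kinase that inhibits it, went opposite ways. Eef2 was at 1047, 944 and 1066 CPM in WT/Sed and 878, 920 and 865 CPM in Cdo1KKO/Sed (-0.20 ± 0.06 (SE), adjusted p = 0.0171). Eef2k was at 3.73, 3.45 and 3.11 CPM and then 5.91, 5.13 and 4.64 CPM (0.61 ± 0.16 (SE), adjusted p = 0.013). Neither pair of groups overlapped, though the margin for Eef2 was narrow. The fall of Eef2 ended on the other scales, where its TPM was 696 and 722, and without Cdo1KKO/Sed replicate 1, Cdo1KKO/Sed replicate 3 or WT/Sed replicate 1 (adjusted p 0.0706 to 0.0908). The rise of Eef2k ended without Cdo1KKO/Sed replicate 1 (adjusted p = 0.0702). Eif5a, whose hypusine residue helps the ribosome past difficult peptide bonds, was at -0.05 and not called, at 287 and 330 TPM. Its scarcer copy Eif5a2 rose, from 7.79, 8.36 and 8.66 CPM to 11.4, 12.5 and 12.7 CPM (0.56 ± 0.10 (SE), adjusted p = 0.0013).

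The methyltransferases that modify the elongation factors gave 1 call among 6, a fall (16.7%, against 18.5% of all genes tested). Eef1akmt1, a lysine methyltransferase of eEF1A with the highest level of the role at 32.0 and 29.1 TPM, was at 13.7, 12.4 and 13.8 CPM in WT/Sed and 9.86, 10.5 and 10.2 CPM in Cdo1KKO/Sed (-0.39 ± 0.09 (SE), adjusted p = 0.00786). Its fall held whichever library was left out, but not on the other scales. Eef1akmt3 had the lowest log2 fold change of the set, -0.71 ± 0.26 (SE), and missed the threshold (adjusted p = 0.0581). Eef1akmt4 at 0.34 ± 0.26 (SE; adjusted p = 0.353) and Eef2kmt at 0.13 ± 0.11 (SE; adjusted p = 0.378) share over 20% of their exonic bases with other genes. Eef1akmt2 and Eef1aknmt were at 0.13 and -0.08 and not called.

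The order of levels in TPM was led by Eef1a1, Eef2, Eif1, Eif5a and Eif4g2 in the mean over all libraries. Eef1a1 and Eef2 were set apart from the rest in every library. Near the foot were Eef2k at 1.05 and 1.91 TPM, Aarsd1 at 0.78 and 0.79 TPM and Eif3j2 at 0.41 TPM in both groups. Besides Eef1a2, Eif4a3l1 and Eif4e1b had 0 counts in all libraries and Eif4a3l2 had 6 counts in each group, all too few to test.

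**Figure D5:**
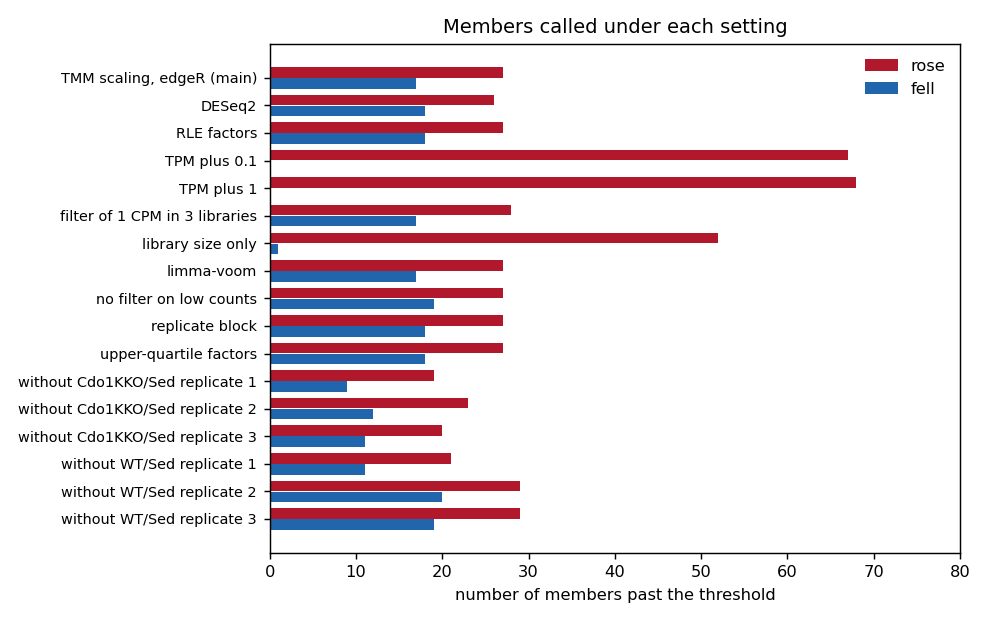
Number of the 105 tested members past the threshold in each direction (red rose, blue fell) under the main setting and each alternative. The red bars run from 19 to 68 and the blue bars from 0 to 20, and the blue bars vanish or nearly vanish on the TPM and library size scales.

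Genes that act around these members were counted in lists. Of 14 genes of the integrated stress response, the program that follows phosphorylation of eIF2, 10 rose and 1 fell, against 18.9% and 18.5% of all genes tested, with a median of 0.63 against 0.01 for all genes. Atf4, the transcription factor translated when eIF2 is phosphorylated, was at 56.4 ± 4.81 TPM and 142 ± 1.17 TPM (SD, n = 3 each; log2 fold change 1.08, adjusted p = 2.58e-07). Asns, which makes asparagine, went from 3.26 to 12.5 TPM (1.68, adjusted p = 9.5e-07), and Eif2ak2, the kinase PKR that was left out of the set by name, from 8.21 to 19.3 TPM (0.98, adjusted p = 1.78e-06). The 1 gene that fell was Ppp1r15b, the constitutive partner of the eIF2 phosphatase, at -0.22 (adjusted p = 0.00582), a call that ended on the other scales. Of 23 genes of mTORC1 and S6 kinase signalling, which acts on the 4E-binding proteins, 3 rose and 4 fell (13.0% and 17.4%, against 18.9% and 18.5% of all genes tested), with a median of -0.07. In log2(TPM + 1) 9 of the 23 rose and 1 fell, against 39% and 7.26% of all genes tested. With library size only 5 rose and 1 fell, against 32.1% and 9.8%. Those that rose were Sesn3 at 0.71, Tsc1 at 0.35 and Rps6ka3 at 0.21, and those that fell were Castor1 at -0.69, Castor2 at -0.67, Mtor at -0.32 and Tsc2 at -0.22; of the 4 falls only that of Castor2 held on the TPM and library size scales. The calls of Castor1 and Rps6ka3 ended in 4 of the 6 fits that leave out 1 library, both without Cdo1KKO/Sed replicate 1, Cdo1KKO/Sed replicate 3 and WT/Sed replicate 1, Castor1 also without WT/Sed replicate 2 (adjusted p 0.0758 to 0.164) and Rps6ka3 also without Cdo1KKO/Sed replicate 2 (adjusted p 0.0764 to 0.113).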

How the data were processed

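Poly(A) RNA of 6 mouse kidneys was sequenced, 3 libraries in each of 2 groups. Gene counts and TPM values were deposited as tables by the authors, both for 55401 genes; the deposited counts are whole numbers. Reads were processed with fastp 0.23.4 and builds GRCm38 and mm10 are named, per the submitters' processing notes; the aligner, counter, annotation and strand setting were not given in the sources used here, so sense and antisense reads cannot be told apart. 30 of the 105 members with a position in GENCODE M21 share exonic bases with a gene on the opposite strand, and 7 share over 20% of their exonic bases with another gene (Aarsd1, Aimp2, Eef1akmt4, Eef2kmt, Eif3d, Eif4ebp3 and Iars2).

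From the deposited counts, genes were kept by filterByExpr and scaled by TMM, and the groups were compared in R 4.3.3 with edgeR 4.0.16 (robust quasi-likelihood F test, genotype only), with Benjamini-Hochberg adjustment over all 17194 genes tested and a threshold of 0.05. The SE is approximate, derived from the log2 fold change and the F statistic. The scripts were tested on simulated counts. Alternatives were DESeq2 1.42.0, limma-voom and limma on log2(TPM + 1) and log2(TPM + 0.1) with limma 3.58.1, other scalings and filters, the replicate block, and leaving out each library. Depth was 28145261 to 43872779 counts; 3 counts over the 3 libraries equal 0.0281 CPM for WT/Sed and 0.0253 CPM for Cdo1KKO/Sed, counting error only.

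The members and lists were chosen with earlier results of these data known. Members were named by role: up to 4 with the smallest p, the highest TPM, all members of counts of 5 or fewer, the 5 highest levels, those with no count, and the planned pairs, of which 1 is not reported here. Members outside this rule, such as Eprs, Kars, Eif4b, Eif4g1 and Eif2s1, were named after their values were seen, as were Mars1 and the split by multisynthetase complex. Promoter windows came from RefSeq (GRCm38.p6); TGATGNAA, TTCNNNGAA and CACGTG were searched on both strands.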

Additional observations from a re-analysis of the deposited data

How the results depend on the processing

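The scaling mattered most. The number of members that rose was 67 in log2(TPM + 0.1), 68 in log2(TPM + 1) and 52 with library size only, and the number that fell was 0, 0 and 1. For cytosolic synthetases 19 rose on either TPM scale, and for mitochondrial synthetases 0, 0 and 1 fell. Leaving out 1 library gave 19 to 29 rises and 9 to 20 falls of members, 8 to 12 rises of cytosolic synthetases and 5 to 8 falls of mitochondrial synthetases. Without WT/Sed replicate 2 the members gave 29 rises and 20 falls, and without WT/Sed replicate 3 29 and 19, against 27 and 17 with all libraries. Without Cdo1KKO/Sed replicate 1 they gave 19 and 9. Each such fit leaves 2 libraries in a group, and the reason for the spread was not tested. Of the 50 tested members below 0, 37 were above 0 on either TPM scale and 25 with library size only; none turned the other way. Among the members named by rule, those whose sign turned and that passed the threshold on at least 1 of the scales compared had, in log2(TPM + 0.1) and log2(TPM + 1), Eef1g (0.19 and 0.19), Eef2 (0.055 and 0.055), Eif1b (0.033 and 0.033), Eif2b1 (0.002 and 0.001), Eif2b5 (0.16 and 0.16), Eif3h (0.085 and 0.084; 0.00 with library size only), Eif3k (0.074 and 0.073), Eif4ebp2 (0.01 and 0.01), Eif5a (0.21 and 0.20) and Rars2 (0.17 and 0.17); the cause was not tested beyond the shift of the median gene. DESeq2, limma-voom, RLE or upper-quartile factors and other filters gave 26 to 28 rises and 17 to 19 falls. With the replicate block 27 members rose and 18 fell, with 12 cytosolic rises and 8 mitochondrial falls; it ended the call of Eif1b. The deviations of same-numbered libraries were correlated at -0.00, 0.01 and 0.01, so the numbers were not taken to pair the samples. Depth limits the members at a few counts, and 3 libraries a group limit every exact test to p = 0.1. The labels give no batch, age or sex, which cannot be told apart from the groups.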

Other observations

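Mitochondrial translation beyond the synthetases also lay below the bulk of genes. Of 16 factors of initiation, elongation, amidation, recycling and release in mitochondria 13 fell (81.2%, against 18.5% of all genes tested) and 1, Qrsl1 of the glutamine amidotransferase (0.27, adjusted p = 0.0308), rose, with a median of -0.33. Tufm, the mitochondrial elongation factor Tu, was at 151 ± 2.65 TPM in WT/Sed and 126 ± 6.14 TPM in Cdo1KKO/Sed (SD, n = 3 each; -0.51, adjusted p = 4.15e-05), and Gatb and Guf1 were at -0.38 and -0.39 (adjusted p = 0.000393 and 0.000511). The rise of Qrsl1 ended without Cdo1KKO/Sed replicate 1 or 3 or WT/Sed replicate 2 (adjusted p 0.061 to 0.124). Some falls also ended when 1 library was left out. That of Mtrf1l ended in 3 fits (adjusted p 0.0523 to 0.0794), that of Mtfmt in 2 (0.0604 and 0.0613) and that of Mtif2 in 1 (0.054). In log2(TPM + 1) 2 of the 16 fell and 1 rose, against 7.26% and 39% of all genes tested. With library size only 6 fell and 1 rose, against 9.8% and 32.1%. Of 7 genes of selenocysteine incorporation 5 fell, or 71.4% against 18.5% of all genes tested: Sepsecs, which makes the selenocysteinyl-tRNA, at -0.46, Sephs2 at -0.36, Pstk at -0.50, Eefsec at -0.39 and Secisbp2 at -0.24. In log2(TPM + 1) 1 of the 7 fell and 1 rose, and with library size only 3 fell and 0 rose, against the same shares of all genes on each scale.

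The lists of termination and mRNA handling fell about as often as all genes, of which 18.5% did, and their calls turned on the scale. Of 14 genes of release, rescue and recycling 0 rose and 3 fell, or 21.4% (Mcts1 at -0.28, Mcts2 at -0.43 and Nemf at -0.18). None of the 3 falls held in TPM. In log2(TPM + 1) 8 of the 14 rose and 0 fell, against 39% and 7.26% of all genes tested. With library size only 5 rose and 0 fell, against 32.1% and 9.8%. Leaving out 1 library ended the calls of Mcts1 (Cdo1KKO/Sed replicate 2 or WT/Sed replicate 1), Mcts2 (Cdo1KKO/Sed replicate 2 or 3 or WT/Sed replicate 1) and Nemf (any Cdo1KKO/Sed library or WT/Sed replicate 1), with adjusted p of 0.0536 to 0.0557, 0.0547 to 0.0697 and 0.055 to 0.14. Of 21 genes of poly(A) binding, helicases and cap regulation 0 rose and 5 fell, or 23.8%. In log2(TPM + 1) 10 rose and 1 fell, against 39% and 7.26% of all genes tested. With library size only 9 rose and 1 fell, against 32.1% and 9.8%. Among the 5, Ybx1, an abundant mRNA-binding protein, was at 925 ± 87.0 TPM and 759 ± 10.3 TPM (SD, n = 3 each; -0.54, adjusted p = 4.95e-05) and fell on all 3 scales. The other 4 were Mknk2 at -0.30, Ncbp2 at -0.23, Paip1 at -0.18 and Paip2 at -0.13; in log2(TPM + 1) Paip2 was higher, at 0.12 (adjusted p = 0.0294, limma). Without WT/Sed replicate 1 or Cdo1KKO/Sed replicate 2 the calls of Ncbp2, Paip1 and Paip2 ended, those of Paip1 and Paip2 also without Cdo1KKO/Sed replicate 1, and that of Paip2 also without Cdo1KKO/Sed replicate 3 (adjusted p 0.0716 to 0.0879, 0.0715 to 0.0857 and 0.0637 to 0.172). Of 9 enzymes of hypusine and diphthamide, the modifications of eIF5A and eEF2, Dph5 rose (0.36, adjusted p = 0.0343) and the others were not called. This is 11.1%, against 18.9% of all genes tested. In log2(TPM + 1) and with library size only 5 of the 9 rose, against 39% and 32.1% of all genes tested. The call of Dph5 ended in 5 of the 6 fits that leave out 1 library, all but that without WT/Sed replicate 2 (adjusted p 0.0726 to 0.112).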
